A study of Mus musculus with 3 samples.

Results

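The semaphorins, plexins, ephrins, Eph receptors, Slits and Robos were followed as one set of guidance genes across the nuclei of 3 single-nucleus RNA-seq libraries. A gene belonged to the set when its symbol began with Sema, Plxn, Epha, Ephb, Efna, Efnb, Slit or Robo followed by a digit or letter, and the Slitrk genes were left out. The rule used names only, and it took 61 of the 32285 genes in the tables: 20 Sema, 12 Plxn, 9 Epha, 5 Ephb, 5 Efna, 3 Efnb, 4 Robo and 3 Slit genes. Levels by cell class were described for the 52 genes with at least 300 counts over the 3 libraries, a minimum that 13898 of all genes passed. The other 9 genes stayed under it: Efna1 (188 counts), Efna4 (66), Epha1 (31), Epha2 (59), Ephb4 (157), Robo4 (57), Sema3b (210), Sema3g (22) and Plxna4os3 (0).

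These families are the contact and diffusible signals that growing axons, dendrites and glia use to find or avoid each other, and many remain expressed in the adult brain. Semaphorins are secreted or membrane-bound ligands read by plexins, with neuropilins as co-receptors for most secreted class 3 members. Ephrins are membrane ligands, the A type held by a lipid anchor and the B type by a transmembrane stretch, and their Eph receptors are tyrosine kinases, so that ligand and receptor cells can both respond. Slits are secreted proteins read by Robo receptors, and the pair is known for keeping axons away from the midline.

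Each library was a pool of prefrontal cortex nuclei from male mice aged 6 to 8 weeks: C57BL/6 (5 mice), Nav1 KO (4 mice) and BTBR T+ Itpr3tf/J (the number of mice was not given). Nav1 KO mice carry a homozygous CRISPR deletion at the end of exon 1 of Nav1, which codes for a neuronal microtubule-associated protein, on the C57BL/6J background. Nuclei were sorted on Hoechst and NeuN and both NeuN-positive and NeuN-negative nuclei were collected. BTBR is an inbred strain used for its social and repetitive behaviours, and it differs from C57BL/6 across the whole genome. With 1 pooled library per group there was no replicate and no test of any difference between groups: intervals are exact 95% Poisson or binomial intervals that cover counting error only, and both Nav1 KO and BTBR were compared with the same C57BL/6 library.

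After filtering, 14630 C57BL/6, 14056 Nav1 KO and 14778 BTBR nuclei were kept, with 38704723, 50965774 and 48948184 counts and a median of 2074, 2754 and 2510.5 UMIs per nucleus. Pairs of libraries shared 61 to 71 barcodes. The nuclei fell into 34 clusters, of which 22 were named from fixed markers and merged into 19 classes. Each class name means only that the nuclei resembled that type by its markers: 6 cortical excitatory classes (layer 2/3, layer 4/5, layer 5 extratelencephalic or ET, layer 5/6 near-projecting or NP, layer 6 intratelencephalic or IT, and layer 6 corticothalamic or CT), 3 cortical interneuron classes (Pvalb, Sst and Vip/Lamp5), striatal medium spiny neurons, olfactory bulb mitral/tufted cells and interneurons, and 7 non-neuronal classes. The labels call the samples neurons of the prefrontal cortex, which the 7 non-neuronal classes and the nuclei resembling striatum and olfactory bulb go against. The libraries also differed in makeup: mitral/tufted nuclei numbered 33 in C57BL/6, 545 in Nav1 KO and 284 in BTBR, ensheathing glia 27, 382 and 99, bulb interneurons 145, 1115 and 842, and medium spiny neurons 956, 290 and 467. Nav1 itself stood at 345 CPM (the count of a gene scaled to the total count of its library or, further on, of its class in that library) in C57BL/6, 264 in Nav1 KO and 146 in BTBR, and it was lower in Nav1 KO than in C57BL/6 in 19 of 19 classes, at 0.48 to 0.99 times the C57BL/6 level. Counts at the transcript's 3' end lie outside the deleted stretch of exon 1, so they are no check of the deletion itself. Transcripts of other cell types were counted in every class. Slc17a7, the vesicular glutamate transporter of cortical excitatory neurons, averaged 336 CPM in the 7 non-neuronal classes against 759 CPM in the 6 cortical excitatory ones, a ratio of 0.44. Of the 52 guidance genes, 2 had a ratio at or under this one (Slit1 at 0.40 and Robo3 at 0.42), 28 lay between it and 1, and 22 were higher in the non-neuronal classes. A level in a class that should lack a gene was therefore read as no more than that background. The layer 5/6 NP class, counted as excitatory, held Gad1 and Gad2 together at 207 CPM beside 470 CPM of Slc17a7 and Slc17a6. The clusters of the other cortical excitatory classes held 17.2 to 29.6 CPM and 670 to 975 CPM of these. The source of the GABA markers in layer 5/6 NP was not tested.

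Plxnb1 had the highest fold between its first and next class of the 52 genes, and its close relatives Plxnb2 and Plxnb3 followed other classes, so the 150 bases before their annotated starts are shown (RefSeq, GRCm38.p6). Capitals mark GGGCGG, read on both strands so that CCGCCC also counts, and CANNTG. The Plxnb1 stretch is chr9:109095286-109095435 on the plus strand, the Plxnb2 stretch chr15:89180789-89180938 on the minus strand and the Plxnb3 stretch chrX:73756953-73757102 on the plus strand.
Plxnb1: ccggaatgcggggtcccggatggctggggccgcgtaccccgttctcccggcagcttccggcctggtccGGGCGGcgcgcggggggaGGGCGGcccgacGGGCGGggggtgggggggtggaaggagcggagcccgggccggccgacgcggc
Plxnb2: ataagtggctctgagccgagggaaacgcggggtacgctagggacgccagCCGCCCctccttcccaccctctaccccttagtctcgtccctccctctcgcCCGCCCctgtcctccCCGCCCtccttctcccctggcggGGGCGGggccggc
Plxnb3: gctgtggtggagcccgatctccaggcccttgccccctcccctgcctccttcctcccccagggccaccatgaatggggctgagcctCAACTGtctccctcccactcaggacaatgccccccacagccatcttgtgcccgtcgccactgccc
The Plxnb1 stretch held 3 copies of GGGCGG and the Plxnb2 stretch 4, with no CANNTG in either, whereas the Plxnb3 stretch held no GGGCGG and 1 CANNTG. Over 32817 promoters of the same length, 28.6% held GGGCGG and 47.7% held CANNTG. GC content was 82.7% for Plxnb1, 72.0% for Plxnb2 and 67.3% for Plxnb3, and 59 promoters of the 44 guidance genes that could be matched had a median of 66.7%, against 54.0% over all promoters. These matches describe the letters and not sites in use.

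Across the 19 classes, most guidance genes were spread widely and a few were concentrated. The highest class was the same in all 3 libraries for 19 of 52 genes (36.5%), beside 24.3% of all genes, and it was at least 2 times the next class for 3 (5.77%), beside 9.94% of all genes. A non-neuronal class was highest for 19 of 52 genes (36.5%), against 53.1% of all genes. Both conditions together, the same highest class in all libraries and at least 2 times the next, held for Plxnb1 and Sema7a (3.85%, beside 8.63% of all genes). Mitral/tufted cells were highest for 9 (17.3%), against 7.4%, although this class had only 33 nuclei in C57BL/6. Over 19 classes, Pearson's r of log2(CPM + 1) between C57BL/6 and Nav1 KO had a median over the 52 genes of 0.75. It was 0.71 between C57BL/6 and BTBR and 0.77 between Nav1 KO and BTBR. Over all genes with at least 300 counts in the named classes, 12929 of them, the medians were 0.44, 0.45 and 0.55 in turn. The count levels of the 2 sets were not matched. Individual guidance genes ranged from -0.10 to 0.96, and the points shared their libraries, depths and background RNA.

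**Figure D1:**
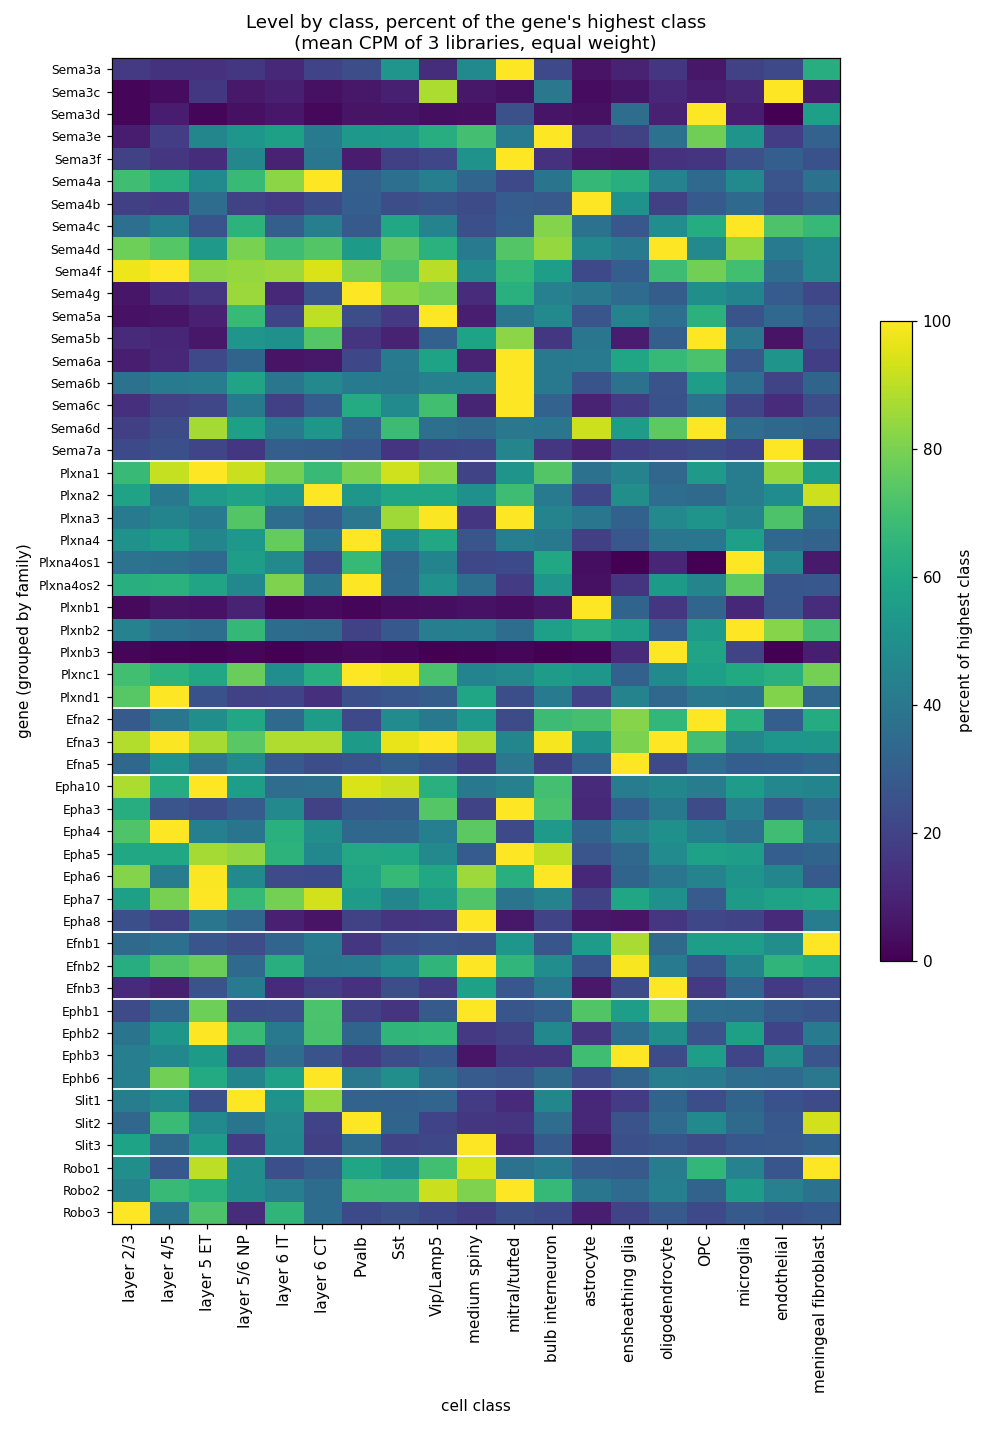
Level of each of the 52 guidance genes (rows, grouped by family) in 19 cell classes (columns), as a percent of the gene's highest class, from the mean CPM of 3 libraries with equal weight. Plxnb1 is brightest in astrocytes and Plxnb3 in oligodendrocytes and their precursors, while most Epha genes are dark in astrocytes and spread over the neuronal classes.

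Among the secreted class 3 semaphorins, which act mostly through neuropilin and plexin A complexes, the leading classes were mitral/tufted cells, bulb interneurons, endothelial nuclei and oligodendrocyte precursor cells (OPC). Sema3a, a repellent of cortical and sensory axons, stood at 105, 109.9 and 88.9 CPM in mitral/tufted cells of C57BL/6, Nav1 KO and BTBR and at 61.3, 68.7 and 59.3 CPM in meningeal fibroblasts, the next class. Mitral/tufted cells led in all 3 libraries, although C57BL/6 had only 33 such nuclei. Astrocytes were lowest on average at 6.48, 10.1 and 0 CPM. Sema3c stood at 122, 169 and 183 CPM in Vip/Lamp5 interneurons and at 167, 200.1 and 175 CPM in endothelial nuclei, the latter on only 9, 37 and 28 counts. Layer 2/3 neurons held 1.65, 4.20 and 1.84 CPM of Sema3c, and bulb interneurons followed at 70.5, 74.1 and 70.9 CPM, so the leading classes were vessels and inhibitory neurons. Among the named classes, Sema3d was highest on average in OPC (27.1, 60.9 and 74.8 CPM) and next in meningeal fibroblasts (39.3, 32.5 and 20.1 CPM). Layer 2/3 held 0.55 to 1.26 CPM. The order of the first 2 classes differed between C57BL/6 and the other libraries, and the OPC counts were 8, 34 and 31. The unnamed cluster 30, with 84 nuclei, stood above both at 291 CPM on 40 counts. Sema3e, the ligand of plexin D1, was highest on average in bulb interneurons (49.8, 55.7 and 47.7 CPM), with Vip/Lamp5 interneurons above them in C57BL/6 only (53.6, 21.5 and 20.4 CPM), and lowest in layer 2/3 (3.85, 3.22 and 4.61 CPM). Sema3f, read by neuropilin 2, stood at 22.4, 43.1 and 38.0 CPM in mitral/tufted cells, where C57BL/6 had 3 counts.

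The class 4 semaphorins, which are membrane-bound, were each highest on average in a different class. Sema4b was highest in astrocytes of all 3 libraries at 67.0, 86.1 and 87.3 CPM, with 15.0 CPM on average in layer 2/3. Sema4d, a ligand of plexin B1, was highest on average in oligodendrocytes at 77.8, 92.3 and 56.5 CPM, yet its lowest class, medium spiny neurons, still held 21.9, 30.9 and 40.6 CPM. Its range over classes was therefore narrow. Sema4a, which binds plexins B and D1, was highest in layer 6 CT neurons of every library at 123, 104 and 85.6 CPM. Sema4g stood at 74.1, 84.8 and 103 CPM in Pvalb interneurons and at 4.58, 5.04 and 6.45 CPM in layer 2/3. Sema4c stood at 25.2, 25.5 and 31.2 CPM in microglia, its highest class on average, on 10 to 12 counts, and Sema4f ran from 33.1 CPM in layer 4/5 to 7.32 CPM in astrocytes on average.

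Class 5 semaphorins, which carry thrombospondin repeats outside the cell, were again split. Sema5a stood at 110.2, 96.2 and 67.2 CPM in Vip/Lamp5 interneurons and 78.8, 72.0 and 97.1 CPM in layer 6 CT neurons, against 4.58, 4.34 and 4.43 CPM in layer 2/3, so the 2 leading classes changed places in BTBR. Sema5b was highest on average in OPC at 78.0, 55.5 and 65.1 CPM, although mitral/tufted cells led in Nav1 KO at 79.0 CPM. The class 6 genes code for transmembrane ligands of plexin A receptors, and 3 of the 4 were highest in mitral/tufted cells of every library: Sema6a at 127, 115 and 151 CPM, Sema6b at 119, 74.4 and 98.9 CPM, and Sema6c at 82.1, 83.6 and 66.9 CPM. In C57BL/6 this class held only 33 nuclei and 133968 counts of all genes, so its levels there rest on few counts. Sema6d had another pattern, with 203, 154 and 209.9 CPM in OPC, 129.7, 174 and 220.0 CPM in astrocytes, 152, 161 and 177 CPM in layer 5 ET neurons and 30.8, 35.9 and 40.2 CPM in layer 2/3. Astrocytes passed OPC in Nav1 KO and BTBR but not in C57BL/6. Sema7a, the lipid-anchored ligand of plexin C1, was highest in endothelial nuclei at 148, 124 and 81.3 CPM, on 8, 23 and 13 counts, and next in mitral/tufted cells at 67.2, 52.2 and 42.0 CPM. Endothelial nuclei stood 2.19-fold above the next class, but only 1.04-fold when each nucleus was put in a class by its own marker counts.

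The plexins are the semaphorin receptors, and Plxnb1 and Plxnb3 were glial. Plxnb1 stood at 214 CPM (174 to 261) in astrocytes of C57BL/6, 167 (143 to 193) in Nav1 KO and 205 (175 to 239) in BTBR. OPC came next on average at 54.3, 53.7 and 82.0 CPM and ensheathing glia followed at 36.8, 82.0 and 69.7 CPM, the first on 2 counts. The neuronal classes averaged 2.83 CPM in layer 6 IT, the lowest, to 18.6 CPM in layer 5/6 NP, the highest of them. Astrocytes were 3.08-fold above OPC on average, and 2.27- to 3.14-fold above the next class under 5 other ways of filtering, thinning, clustering or classing the nuclei. A UMI of Plxnb1 was found in 22.9%, 23.4% and 28.7% of astrocytes and in 0.961%, 1.09% and 2.4% of layer 2/3 nuclei. With each nucleus thinned to 1000 UMIs, which kept 205 of 358, 487 of 616 and 324 of 428 astrocytes and 1837 of 1873, 1897 of 1923 and 1648 of 1711 layer 2/3 nuclei, the shares were 16.1%, 16.02% and 17.3% in astrocytes against 0.381%, 0.474% and 0.850% in layer 2/3. Plxnb3 stood at 32.8 CPM (22.9 to 45.6) in oligodendrocytes of C57BL/6, 49.9 (34.4 to 70.1) in Nav1 KO and 29.1 (16.7 to 47.3) in BTBR, then at 20.3, 30.5 and 14.5 CPM in OPC. Layer 2/3 neurons held 0.550, 0.280 and 0.553 CPM on 3, 2 and 3 counts, and no count was found in Vip/Lamp5, bulb interneuron or endothelial nuclei of any library. Plxnb2 was the broad member, at 50.4, 43.3 and 51.9 CPM in microglia, its highest class on average, and at 11.99, 8.98 and 7.25 CPM in Pvalb interneurons, its lowest. Read against the promoters printed above, the 2 genes with GGGCGG copies were the astrocyte gene and the broad gene, and the gene without one was the oligodendrocyte gene, which with 3 genes is a description only.

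Plexins A, C and D were led by neuronal classes on average. Plxna2 stood at 283, 286 and 280.2 CPM in layer 6 CT neurons and at 302, 218 and 266 CPM in meningeal fibroblasts, with astrocytes lowest at 62.7, 69.6 and 48.1 CPM. The order of the 2 leading classes in C57BL/6 was the reverse of that in the other libraries. Plxna4, the partner of neuropilin 1 in Sema3a reception, was highest in Pvalb interneurons of every library at 206, 158 and 157 CPM and next on average in layer 6 IT neurons at 149, 128 and 119 CPM. Its antisense neighbours Plxna4os1 and Plxna4os2 lie within Plxna4 on the opposite strand. The strand setting of the counting was not stated, and whether their counts hold reads of Plxna4 was not tested. Plxna4os2 was highest on average in Pvalb interneurons too, at 8.72, 6.98 and 4.53 CPM, and Plxna4os1 in microglia at 10.1, 10.2 and 5.20 CPM on 2 to 4 counts. Plxna1 was highest on average in layer 5 ET neurons at 36.5, 40.9 and 36.8 CPM and lowest in medium spiny neurons at 3.83, 9.0 and 10.6 CPM. Its leading class was bulb interneurons in C57BL/6, endothelial nuclei in Nav1 KO and layer 5 ET only in BTBR. Plxna3 was highest on average in mitral/tufted cells (52.3, 61.9 and 59.9 CPM), 1.01-fold above Vip/Lamp5 interneurons (62.7, 66.1 and 44.1 CPM). Its leading class was endothelial in C57BL/6, Vip/Lamp5 in Nav1 KO and Sst in BTBR. Plxnc1 stood at 56.7, 53.9 and 53.5 CPM in Pvalb and at 62.3, 52.9 and 45.1 CPM in Sst interneurons, whose intervals overlapped in each library. Layer 5/6 NP was the highest class of Plxnc1 in Nav1 KO. Plxnd1, a receptor of vessels and of Sema3e, was at 72.3, 59.8 and 65.7 CPM in layer 4/5 neurons and at 92.7, 48.7 and 18.8 CPM in endothelial nuclei, the latter on 5, 9 and 3 counts.

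**Figure D2:**
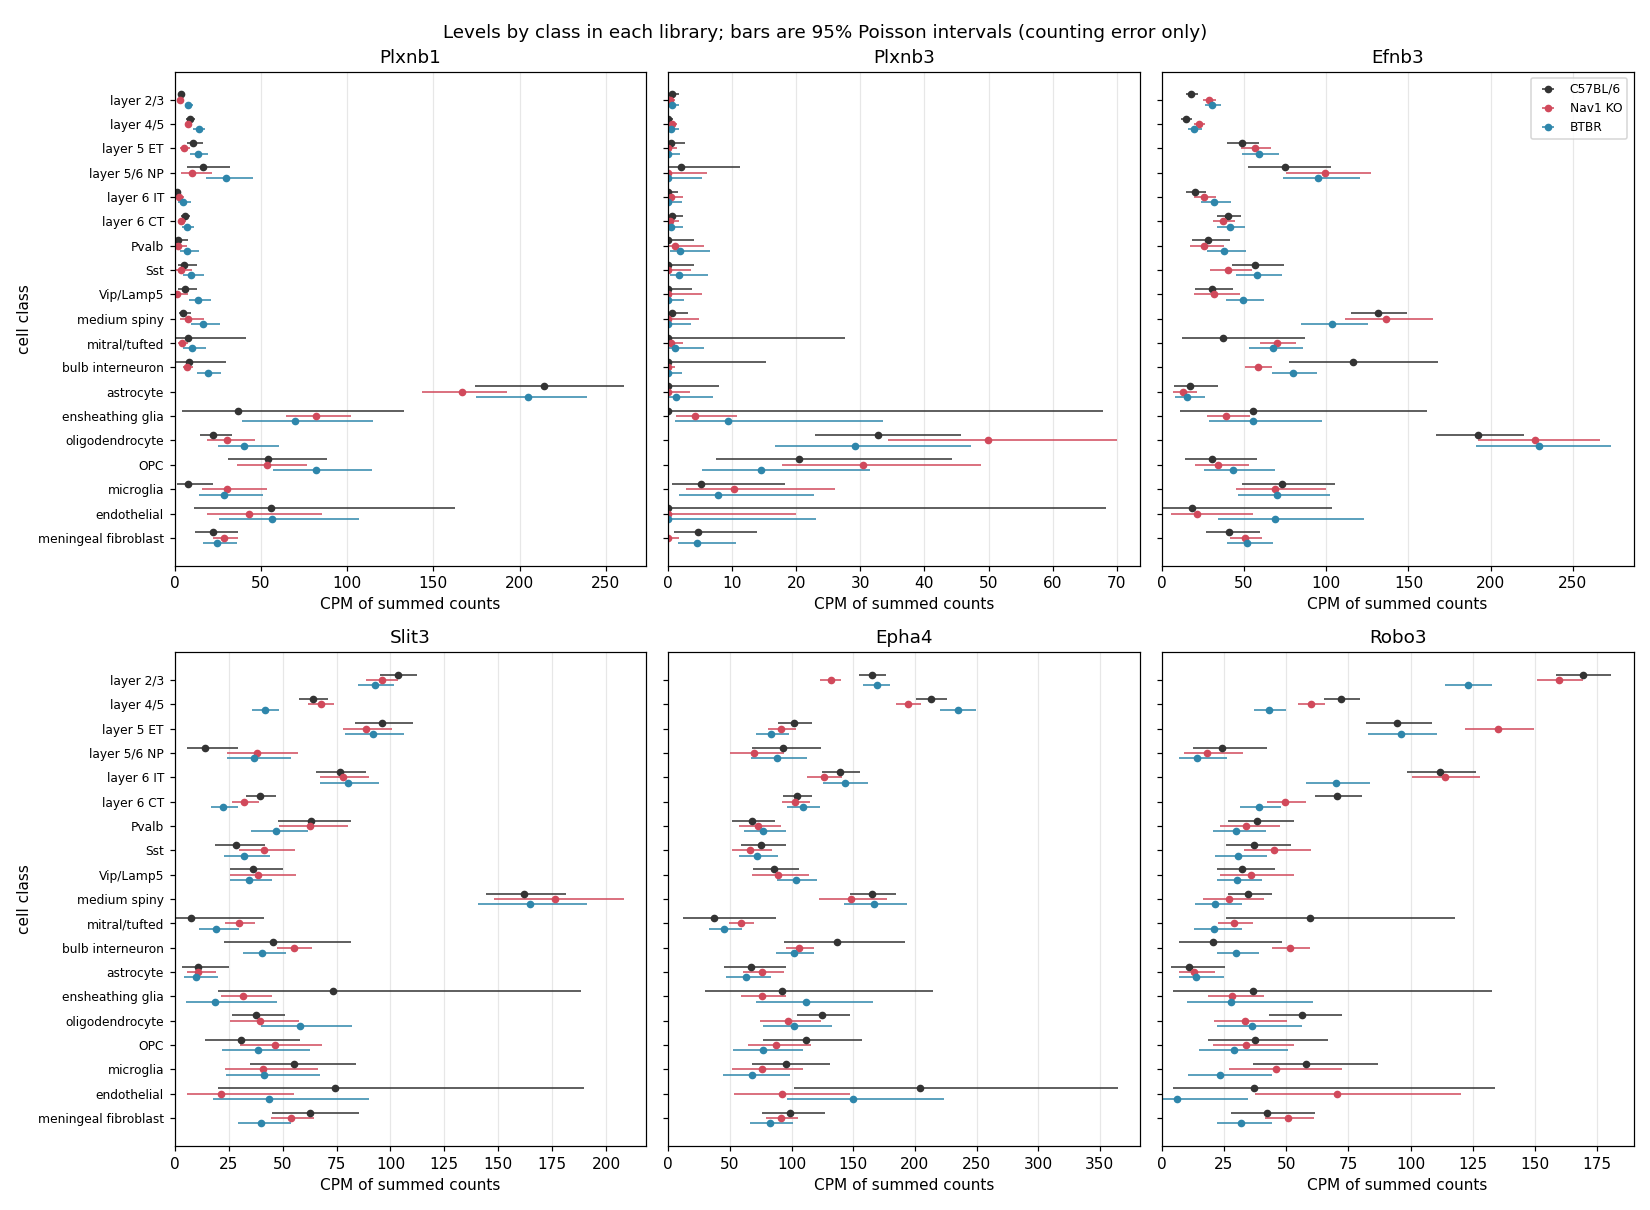
Levels (CPM of counts summed over each class) of 6 guidance genes in 19 classes, with 1 point per library and bars for the 95% Poisson interval, which covers counting error only. The 3 libraries sit together for Plxnb1 in astrocytes (167 to 214 CPM), Efnb3 in oligodendrocytes (192 to 229.5 CPM) and Slit3 in medium spiny neurons (162 to 176 CPM), while Robo3 is highest in layer 2/3 (123 to 169 CPM).

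The B ephrins, ligands that also signal back into their own cell, were led by different classes. Efnb3 stood at 192 CPM (167 to 220.4) in oligodendrocytes of C57BL/6, 227 (192 to 266) in Nav1 KO and 229.5 (191 to 273) in BTBR. Medium spiny neurons came next at 131, 136 and 104 CPM, and astrocytes were lowest on average at 17.3, 12.8 and 15.2 CPM, so the oligodendrocyte level was the highest in all 3 libraries. Efnb2, the arterial ephrin, stood at 89.2, 91.3 and 124 CPM in medium spiny neurons, 1.01-fold above its next class, ensheathing glia, on average. Ensheathing glia were its highest class in C57BL/6, on 8 counts. Efnb1 was low, at 28.3, 24.6 and 21.0 CPM in meningeal fibroblasts. Their EphB receptors overlapped with them in part: Ephb1 was highest in medium spiny neurons of every library at 68.4, 55.3 and 50.3 CPM. Medium spiny neurons were the highest class on average for Efnb2 and the second for Efnb3. Efnb3 was the higher of the 2 there, at 124 CPM on average against 101 CPM. With nuclei put in classes one by one, Ephb1 was highest in oligodendrocytes, 1.00-fold over the next class. Ephb6, an Eph receptor without kinase activity, was highest in layer 6 CT neurons at 145, 121 and 138 CPM and next in layer 4/5 at 120.5, 94.8 and 103 CPM. Ephb2 was highest on average in layer 5 ET neurons at 30.3, 22.8 and 36.8 CPM. Ephb3 was highest on average in ensheathing glia at 91.9, 19.96 and 23.2 CPM on 5, 19 and 5 counts, and astrocytes held 17.3, 35.7 and 40.5 CPM.

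The A ephrins were led by glial classes on average, but only Efna5 had the same highest class in all 3 libraries. Efna5 was highest in ensheathing glia at 110.3, 51.5 and 51.1 CPM, on 6, 49 and 11 counts, and stood at 39.5, 37.7 and 31.1 CPM in layer 4/5. Efna3 was nearly level, from 22.1 CPM in oligodendrocytes to 10.1 CPM in mitral/tufted cells on average. Oligodendrocytes stood 1.00-fold over Vip/Lamp5 interneurons, and its leading class was Vip/Lamp5 in C57BL/6 and layer 5 ET in Nav1 KO. Efna2 reached 12.1 CPM in OPC on average, although OPC led in no single library. The EphA receptors were led by neuronal classes. Epha5 had the most counts of the set, 206039 of them, and was found in every class: 1971, 2546 and 2323 CPM in mitral/tufted cells, 1767, 2069 and 2347 CPM in bulb interneurons and 426, 771 and 608 CPM in astrocytes, the lowest class on average. Epha4, which binds ephrins of both types, was highest in layer 4/5 of every library at 213, 195 and 235 CPM, then in medium spiny neurons at 165, 148 and 166 CPM, and lowest in mitral/tufted cells at 37.3, 58.9 and 44.9 CPM. Epha7 stood at 188, 173 and 162 CPM in layer 5 ET and 176, 144 and 168 CPM in layer 6 CT neurons, which changed places in BTBR. Epha10, a kinase-dead receptor, had 133, 148 and 116 CPM in layer 5 ET neurons, 129, 129 and 118 CPM in Pvalb interneurons and 138, 128 and 82.6 CPM in layer 2/3, and the leading class was layer 2/3 in C57BL/6, layer 5 ET in Nav1 KO and Sst (136 CPM) in BTBR. Epha3 was highest on average in mitral/tufted cells at 112, 88.6 and 67.9 CPM, and Epha6 in bulb interneurons at 53.9, 47.3 and 71.5 CPM beside 64.4, 50.8 and 56.2 CPM in layer 5 ET. Epha8 was 2.36-fold higher in medium spiny neurons (20.2, 38.6 and 40.6 CPM) than in the next class on average, but meningeal fibroblasts matched them in C57BL/6 at 20.4 CPM on 13 counts. Astrocytes were the lowest class on average for Epha3, Epha5, Epha6, Epha7 and Epha10, but not for Epha4 and Epha8. They were also lowest for genes of other families, among them Plxna2, Plxna4, Ephb6, Efnb3 and Robo3. The share of all genes lowest in astrocytes was not counted, so this is no trait of the EphA genes.

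The 3 Slit ligands were each led by a different class. Slit1 was highest in layer 5/6 NP neurons of every library at 86.9, 66.0 and 59.6 CPM, with layer 6 CT close behind at 67.0, 65.6 and 45.7 CPM. Layer 6 CT was its highest class after thinning to 1000 UMIs (1.03-fold over the next) and with nuclei put in classes one by one (1.07-fold). Slit2 was led by Pvalb interneurons (157, 142 and 112 CPM) and meningeal fibroblasts (135, 154 and 94 CPM), and Slit3 by medium spiny neurons (162, 176 and 165 CPM) followed by layer 2/3 (103, 95.9 and 92.9 CPM). All 3 ligands were lowest in astrocytes on average, as were genes of other families, and the share of all genes was not counted. Of their receptors, Robo3, the divergent member of the family, stood at 169, 159.8 and 123 CPM in layer 2/3, at 94.7, 135 and 96.0 CPM in layer 5 ET and at 10.8, 12.8 and 13.9 CPM in astrocytes. Robo2 was at 224, 226 and 262 CPM in mitral/tufted cells and 243, 199.6 and 213 CPM in Vip/Lamp5 interneurons. Robo1 was at 91.2, 65.9 and 79.4 CPM in meningeal fibroblasts and 81.0, 52.7 and 89.0 CPM in medium spiny neurons. Robo4, the endothelial Robo, was under the count minimum with 57 counts, of which 6, 8 and 8 were in endothelial nuclei, at 111, 43.3 and 50.0 CPM.

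Co-receptors, intracellular effectors and the netrin system were followed as lists of 10, 28 and 9 genes. Of these, 4 are named for a high fold between classes, a choice made after their values were seen. Met, a plexin B co-receptor, was 7.03-fold higher in ensheathing glia than in the next class (43.5 and 6.19 CPM on average). Rras, a small GTPase switched off by plexins, was 6.45-fold higher in endothelial nuclei (63.1 and 9.78 CPM). In C57BL/6 these 2 classes had only 27 and 30 nuclei with 54385 and 53943 counts of all genes, so such levels rest on few counts there. Ntn1, the netrin ligand, was 3.75-fold higher in OPC, and Rgma, a ligand of neogenin, 3.05-fold higher in astrocytes. Each of these 4 genes had the same highest class in all 3 libraries. Nrp1 was highest in layer 6 CT neurons of every library at 146 CPM on average, and Nrp2 on average in mitral/tufted cells.

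The Nav1 KO library was compared with C57BL/6 class by class, which asks whether guidance genes differed when this microtubule-associated protein was lost. A gene and class pair entered when it had at least 100 counts over both libraries, which gave 339 pairs of 47 genes, and it was counted as past the fold at 1.5 times or more, or at 1/1.5 or less. Of the 339 pairs, 17 were higher in Nav1 KO (5.01%, beside 5.0% of the pairs of all genes) and 28 were lower (8.26%, beside 7.59%). The median ratio was 0.931 against 0.935 over all genes. Both shares were near the background, and the interval of the ratio lay off 1 in 8 of the 17 higher and 21 of the 28 lower pairs. Nav1 KO ratios were shifted down for genes at large: the median ratio of all genes in a class ran from 0.896 to 0.989, past 0.1 on the log2 scale in 9 of 19 classes, and with each ratio divided by that median 20 pairs were past the fold and higher (beside 7.16% of the pairs of all genes) and 17 lower (beside 4.61%). Leaving out the 3 classes with under 50 nuclei in a library left 7 higher pairs of 312 (2.24%, beside 4.18%) and 26 lower (8.33%, beside 7.15%), so 10 of the 17 higher pairs sat in small classes.

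**Figure D3:**
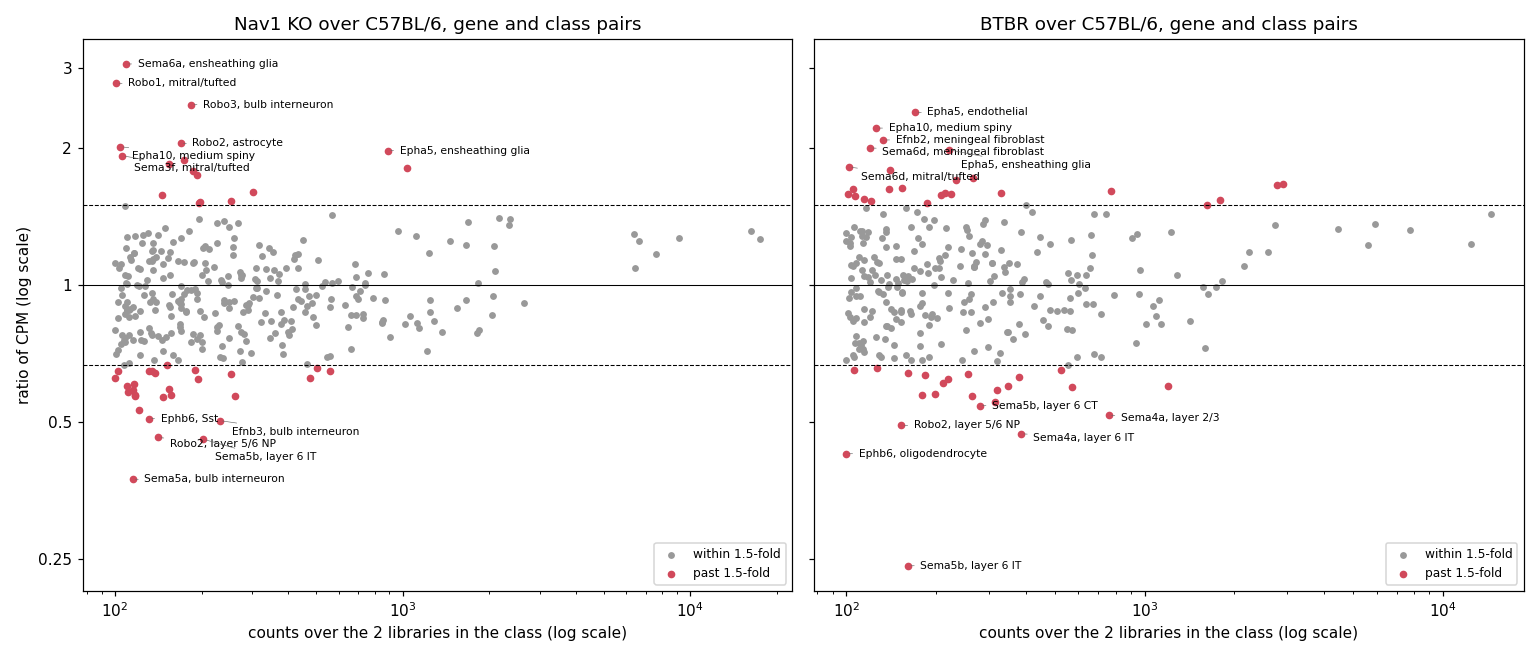
Ratio of CPM to C57BL/6 (log scale) against the counts behind it (log scale), 1 point per gene and class pair with at least 100 counts, for Nav1 KO (left, 339 pairs) and BTBR (right, 306 pairs). Red points are past 1.5-fold, 17 higher and 28 lower in Nav1 KO and 26 higher and 23 lower in BTBR, and the 12 largest folds of each panel are named.

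The semaphorins with the largest folds in Nav1 KO were found in both directions. Sema5b stood at 58.8 CPM in C57BL/6 and 27.0 CPM in Nav1 KO in layer 6 IT neurons, a ratio of 0.46 (0.34 to 0.62). One of the 2 clusters that make up this class held 142 of 796 C57BL/6, 39 of 692 Nav1 KO and 89 of 500 BTBR nuclei, and its part in the ratio was not tested. Sema5a was at 74.7 and 28.0 CPM in bulb interneurons (0.37, 0.22 to 0.66), with 18 counts in C57BL/6. Sema6a in ensheathing glia (36.8 and 112 CPM, 3.06, 0.83 to 25.6) and Sema3f in mitral/tufted cells (22.4 and 43.1 CPM, 1.92, 0.64 to 9.48) rested on 2 and 3 counts in C57BL/6, and their intervals held 1. Sema4a was past the fold and lower in 3 of 9 classes, with layer 6 IT at 123 and 76.9 CPM (0.62, 0.52 to 0.75), and higher in bulb interneurons on 7 C57BL/6 counts.

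Among the Eph and ephrin genes, Epha5 was higher in Nav1 KO than in C57BL/6 in 19 of 19 classes with the interval above 1 in each, at a median ratio of 1.29. The ratio remained above 1 in 19 classes with ratios divided by the class median of all genes and with nuclei thinned to 1000 UMIs. After thinning the interval lay above 1 in 13 of the 19. Epha5 passed 1.5-fold in astrocytes (426 and 771 CPM, 1.81, 1.55 to 2.12), ensheathing glia (460 and 907 CPM, 1.97, 1.33 to 3.07) and endothelial nuclei (389 and 719 CPM, 1.85, 1.16 to 3.08). Its level in the non-neuronal classes averaged 0.60 of that in the cortical excitatory ones, beside 0.44 for Slc17a7. The part of background RNA in these ratios was not tested. Epha10 stood at 30.6 and 61.7 CPM in medium spiny neurons (2.01, 1.34 to 3.01), and in mitral/tufted cells it was higher on 6 C57BL/6 counts. Ephb6 stood at 90.7 and 46.2 CPM in Sst interneurons (0.51, 0.35 to 0.73). Efnb3 was higher in layer 2/3 (18.0 and 28.7 CPM, 1.60, 1.25 to 2.06) and layer 4/5 (14.8 and 22.6 CPM, 1.53, 1.16 to 2.02) and lower in bulb interneurons (116 and 58.5 CPM, 0.50, 0.34 to 0.78).

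Among the Robo receptors, Robo2 stood at 62.7 and 128 CPM in astrocytes (2.05, 1.36 to 3.17) and at 182 and 84.2 CPM in layer 5/6 NP neurons (0.46, 0.32 to 0.66). Robo3 in bulb interneurons (20.7 and 51.6 CPM, 2.49, 1.05 to 7.76) had 5 counts in C57BL/6 and Robo1 in mitral/tufted cells (14.9 and 41.4 CPM, 2.77, 0.75 to 23.2) had 2. No Slit gene was past the fold and higher in its compared pairs (4 for Slit1, 8 for Slit2 and 9 for Slit3). Slit2 was past it and lower in 1 of 8. Over all genes 5.0% of the pairs were higher and 7.59% lower, so with so few pairs these counts are no result about the Slit genes. In classes chosen after the counts were seen, layer 2/3 held 7 lower pairs of 41 (17.1%, beside 6.58% of all genes there): Sema6c, Plxna3, Epha8, Sema5b, Ephb2, Ephb1 and Plxnd1, at 0.57 to 0.65. Plxnd1 had the most counts of these, at 55.3 and 35.9 CPM (0.65, 0.55 to 0.77). Medium spiny neurons held 5 lower pairs of 20 (25%, beside 8.22%) and bulb interneurons 6 of 25 (24%, beside 13.7%), while mitral/tufted cells held 7 higher pairs of 22 (31.8%, beside 15.7%). These classes also differed in number between C57BL/6 and Nav1 KO, at 956 and 290 medium spiny, 145 and 1115 bulb interneuron and 33 and 545 mitral/tufted nuclei, and the part of that in the counts was not tested. Put in classes one by one from marker counts, Robo2 stood at 1.01 times C57BL/6 in astrocytes and 0.92 in layer 5/6 NP neurons, Epha5 at 1.09 in ensheathing glia, Ephb6 at 0.74 in Sst interneurons and Sema5a at 0.76 in bulb interneurons, all within 1.5-fold. Robo1 in mitral/tufted cells (0.72), Robo3 in bulb interneurons (0.83) and Efnb3 in bulb interneurons (1.07) then had the opposite direction, and Robo2 in layer 5/6 NP neurons was at 0.71 at 2 times the clustering resolution.

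A wider count took every class with at least 20 counts of a gene over both libraries and asked for an interval off 1 in at least 6 classes and on the other side in none. In Nav1 KO 2 of 48 genes were higher by this count, Epha5 and Sema3c (6 of 13 classes, median ratio 1.51), against 3.9% of all genes. Lower were 3 of 48, Epha7, Sema4a and Sema5b with 6 classes each, against 10.3% of all genes. With ratios divided by the class median of all genes these were 4 classes for Epha7, 3 for Sema4a and 5 for Sema5b. After thinning, the interval lay above 1 in 13 of 19 classes for Epha5 and 1 of 5 for Sema3c. It lay below 1 in 2 of 15 classes for Epha7, 2 of 12 for Sema4a and 1 of 9 for Sema5b. The thinned ratios of Sema5b were above 1 in 4 classes and below 1 in 5, so its direction over classes was not kept. Of the co-receptors, 18 of 73 pairs were past the fold and lower in Nav1 KO and 2 higher (beside 7.59% and 5.0% of the pairs of all genes, which are also the background of the effectors and the netrin system), with a median ratio of 0.849, and 13 of the 18 were Flrt3, a Robo1 and Unc5 binding protein that was past the fold in 13 of 16 classes, with ratios of 0.40 to 0.74 over the 16. The effectors had 30 lower and 9 higher of 273 pairs, among them Mical2, an actin-oxidising enzyme used by plexins, past the fold and lower in 10 of 18 classes. The netrin system had 6 lower and 2 higher of 47 pairs.

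BTBR was compared with C57BL/6 in the same way, which sets a strain difference over the whole genome beside the loss of 1 gene. Of 306 pairs of 44 genes, 26 were higher in BTBR (8.50%, beside 7.73% of the pairs of all genes) and 23 lower (7.52%, beside 6.17%), with a median ratio of 1.01 for guidance genes and for all genes. The interval lay off 1 in 25 of the 26 higher and all 23 lower pairs. The class medians of all genes ran from 0.978 to 1.06, and with each ratio divided by that median 25 pairs were past the fold and higher (beside 7.46% of the pairs of all genes) and 24 lower (beside 6.34%). In classes again chosen after the counts were seen, layer 6 IT held 6 lower pairs of 24 (25%, beside 6.84% of all genes there) and layer 6 CT 5 of 34 (14.7%, beside 6.27%).

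Among the semaphorins, Sema5b and Sema4a were lower in BTBR in several classes. Both were also lower in Nav1 KO by the interval count before thinning, against the same C57BL/6 library. Sema5b in layer 6 IT neurons stood at 58.8 CPM in C57BL/6, 27.0 in Nav1 KO and 14.2 in BTBR, and the BTBR ratio was 0.24 (0.15 to 0.38), the largest fold of the comparison. It stood at 62.8 and 34.2 CPM in layer 6 CT neurons of C57BL/6 and BTBR (0.54, 0.42 to 0.71) and was below 1 in 15 of 15 classes, with the interval below 1 in 6. Sema4a stood at 123 and 58.1 CPM in layer 6 IT (0.47, 0.37 to 0.60) and at 91.6 and 47.4 CPM in layer 2/3 (0.52, 0.44 to 0.60), and it was past the fold in 4 of 7 classes. In the opposite direction, Sema6d was past the fold in 6 of 16 classes and its interval lay above 1 in 10 of 18. It stood at 42.5 and 84.9 CPM in meningeal fibroblasts (2.00, 1.29 to 3.19), at 129.7 and 220.0 CPM in astrocytes (1.70, 1.26 to 2.31) and at 52.3 and 94.9 CPM in mitral/tufted cells on 7 C57BL/6 counts (1.82, 0.85 to 4.64).

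Receptors and ephrins also differed between BTBR and C57BL/6. Epha5 was higher in 19 of 19 classes with every interval above 1 (median ratio 1.35), past the fold in 6: endothelial (389 and 932 CPM, 2.39, 1.51 to 3.98), ensheathing glia (460 and 911 CPM, 1.98, 1.30 to 3.14), Sst, Pvalb, medium spiny and oligodendrocyte. With nuclei thinned to 1000 UMIs all 19 ratios of Epha5 stayed above 1, with the interval above 1 in 14. Epha5 was lowest in C57BL/6 in all 19 classes, so both comparisons rest on that 1 library. Epha10 was split by class: 30.6 and 67.7 CPM in medium spiny neurons (2.21, 1.53 to 3.20) but 138 and 82.6 CPM in layer 2/3 (0.60, 0.53 to 0.67). In medium spiny neurons Nav1 KO stood at 2.01 times the same C57BL/6 level. Efnb2 was higher in the interval count in 8 of 18 classes and stood at 45.6 and 94.9 CPM in meningeal fibroblasts (2.08, 1.37 to 3.26). Ephb6 stood at 76.9 and 32.8 CPM in oligodendrocytes (0.43, 0.24 to 0.72), with Nav1 KO between them at 60.5 CPM. Robo2 stood at 182 and 89.5 CPM in layer 5/6 NP neurons (0.49, 0.35 to 0.69), where Nav1 KO held 84.2 CPM, so C57BL/6 was the high library. Robo3 was past the fold and lower in 3 of 5 classes, with layer 6 CT at 70.5 and 39.1 CPM (0.55, 0.43 to 0.71). With nuclei put in classes one by one, Epha10 in medium spiny neurons stood at 1.06, Sema6d in meningeal fibroblasts at 1.15, Epha5 in endothelial nuclei at 1.49 and Robo2 in layer 5/6 NP neurons at 1.04 times C57BL/6, all within 1.5-fold, and Efnb2 in meningeal fibroblasts was at 1.29 after thinning to 1000 UMIs.

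**Figure D4:**
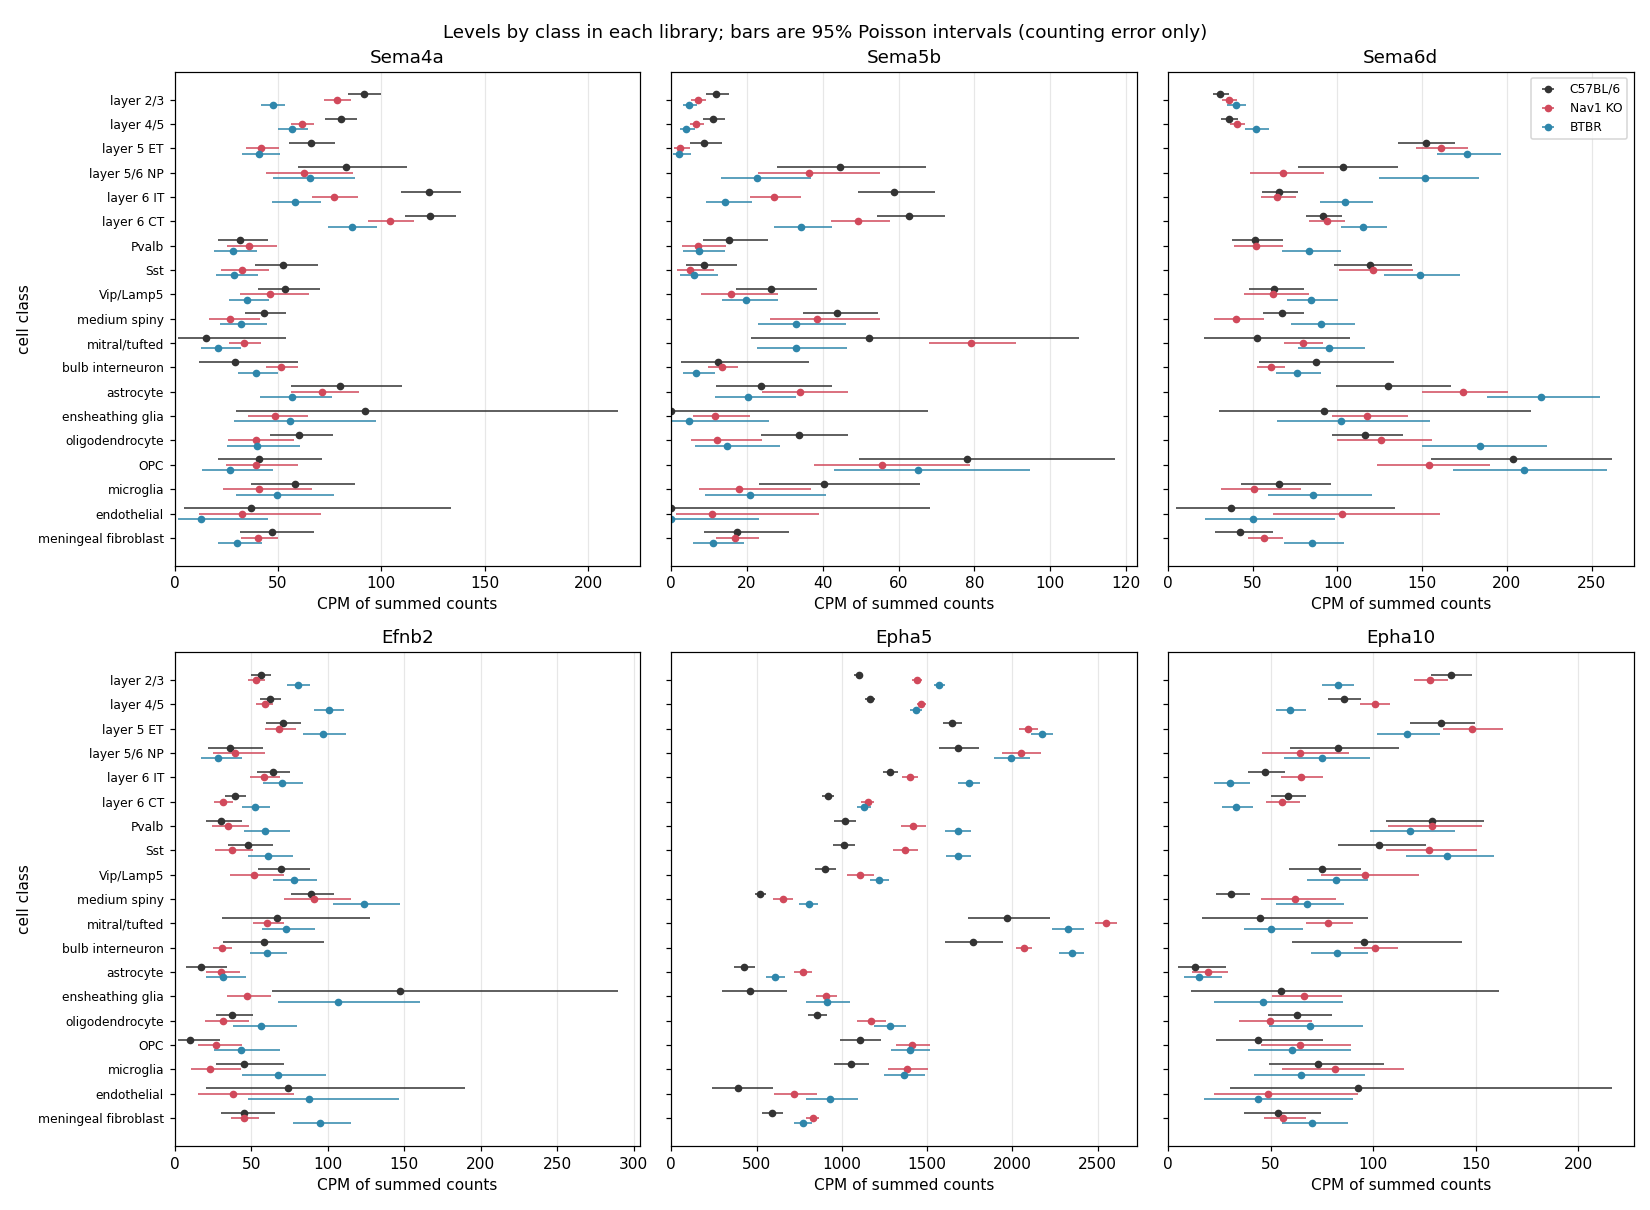
Levels (CPM of counts summed over each class) in 19 classes of 6 guidance genes that differed between libraries, with 1 point per library and bars for the 95% Poisson interval, which covers counting error only. C57BL/6 is lowest for Epha5 in every class. Before thinning, BTBR is below C57BL/6 for Sema5b in all classes with at least 20 counts. Epha10 in layer 2/3 is 138 CPM in C57BL/6 and 82.6 CPM in BTBR.

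By the interval count over at least 6 classes, 3 of 46 genes were higher in BTBR (Efnb2, Epha5 and Sema6d), against 7.62% of all genes. Lower were 4 of 46 (Plxna4, Robo3, Sema4a and Sema5b), against 7.91%. After thinning, Efnb2 had its interval above 1 in 2 of 12 classes, Epha5 in 14 of 19 and Sema6d in 4 of 15. The interval lay below 1 in 2 of 14 for Plxna4 and 3 of 8 for Robo3. For Sema4a it did so in 4 of 12 and for Sema5b in 4 of 6. Of the co-receptor pairs 8 of 72 were past the fold and higher and 9 lower, beside 7.73% and 6.17% of the pairs of all genes, which are also the background of the effectors and the netrin system. Gpc1, a heparan sulphate proteoglycan that binds Slit, was past the fold and higher in 3 of 6 classes, Ptprz1, a phosphatase abundant in OPC, in 3 of 10, and Flrt3 was past it and lower in 6 of 16. Effectors had 11 higher and 22 lower of 250 pairs, with Mical2 past the fold and lower in 11 of 16 classes, and the netrin system 1 and 1 of 46. Flrt3 and Mical2 were also past the fold and lower in Nav1 KO, in 13 of 16 and 10 of 18 classes, against the same C57BL/6 library.

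Levels over all kept nuclei mixed class makeup with level per class, since in summed counts more nuclei of a class and more RNA per nucleus cannot be told apart. Each gene was therefore also compared with the named classes given the same weights in both libraries. That ratio left out the unnamed nuclei, 4387 in C57BL/6, 2473 in Nav1 KO and 5060 in BTBR (30.0%, 17.6% and 34.2%). The ratio over all nuclei held them, so the 2 ratios differed in nuclei as well as in weights. In Nav1 KO 3 of 50 genes were higher over all nuclei (6.55% of all genes) and 2 lower (4.51%): Sema3d at 2.25, Sema3c at 1.68, Sema3f at 1.55, Ephb1 at 0.65 and Epha8 at 0.66 times C57BL/6. With equal weights none of the 50 passed (2.96% and 4.03% of all genes), at 1.30, 1.36, 1.46, 0.74 and 0.74. Plxnb1 stood at 1.42 over all nuclei and 0.92 with equal weights and Sema6a at 1.26 and 0.90, so both had opposite directions, in a library with 616 astrocytes and 545 mitral/tufted nuclei beside 358 and 33 in C57BL/6. Over the named classes without weights Plxnb1 stood at 1.26 and Sema6a at 1.24. In BTBR 4 of 50 genes were higher over all nuclei (9.05% of all genes), Plxnb1 at 1.82, Sema3c at 1.62, Sema3d at 1.58 and Epha5 at 1.54, and with equal weights these stood at 1.41, 1.18, 1.15 and 1.34, none past the fold (6.54% of all genes). Lower were 3 of 50 (5.42% of all genes), Sema5b at 0.46, Sema4a at 0.58 and Robo3 at 0.61, and of these Sema5b (0.51) and Sema4a (0.64) stayed past the fold with equal weights (5.48% of all genes).

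**Figure D5:**
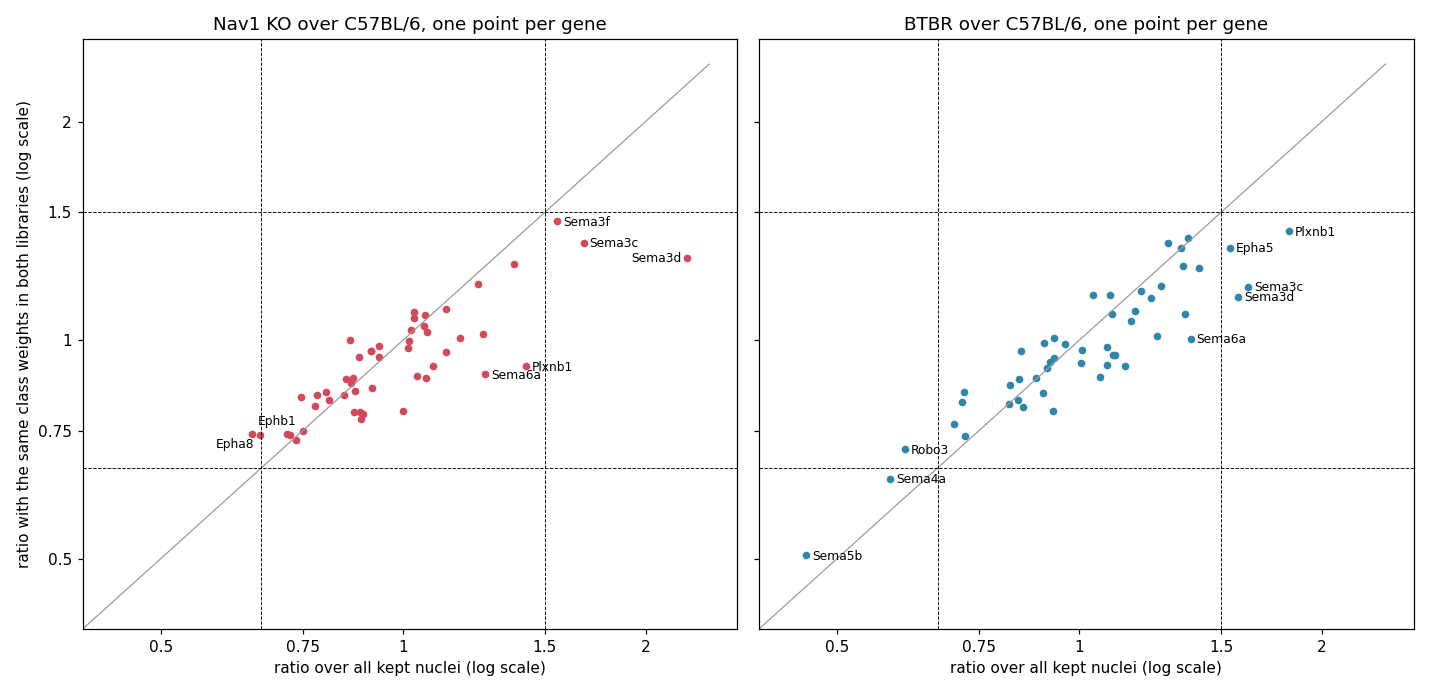
Ratio to C57BL/6 over all kept nuclei (x axis, log scale) against the ratio with the same class weights in both libraries (y axis, log scale), 1 point for each of 50 guidance genes, for Nav1 KO (left) and BTBR (right), with dashed lines at 1.5-fold. The ratio on the y axis leaves out the unnamed nuclei. Sema3d in Nav1 KO moves from 2.25 to 1.30 and Plxnb1 from 1.42 to 0.92, while Sema5b in BTBR stays low at 0.46 and 0.51.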

How the data were processed

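Nuclei of mouse prefrontal cortex were profiled by droplet single-nucleus RNA-seq in 3 pooled libraries, 1 per group. The authors deposited UMI counts per gene and barcode, made with Cell Ranger 6.0.0 on mm10 per the submitters' processing notes and, by the study's methods, holding the barcodes that Cell Ranger's own filter kept. They were used as deposited. mm10 is a C57BL/6J sequence used for BTBR reads too, and its bearing on BTBR levels was not tested. The strand setting is not given in the sources used here.

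Barcodes were kept at 200 genes or more with mitochondrial genes giving less than 10% of counts, which left out 772 C57BL/6, 567 Nav1 KO and 460 BTBR barcodes. No doublet caller was run. Counts were scaled to 10000 per nucleus and logged, 3000 variable genes without the guidance genes gave 30 principal components, and Leiden clustering of the merged libraries (20 neighbours, resolution 1) gave 34 clusters, of which 12 were unnamed. A cluster was named only when at least 3 markers of 1 of 22 lists stood at least 1.4-fold above the other clusters. Clusters that met this limit were still left unnamed when no marker of the list was among their 10 leading genes. The same held when a list of another lineage was also high (limit 2.8-fold) or when leading genes were ribosomal or mitochondrial. A cluster led by medium spiny markers was left unnamed because its glutamate markers stood above its GABA markers. These naming limits were set after the clusters had been seen, and the lists and members were chosen with earlier results of these data known. From their own marker counts 43019 nuclei were put in a class one by one, 14983 of them with a leading list under 1.5 times the next, and of the 31283 named both ways 15498 got the class of their cluster.

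Counts were summed by class and library. Levels are CPM with exact Poisson intervals, and the interval of a ratio treats the 2 counts as a binomial draw (Clopper-Pearson). Intervals cover counting error only, since with 1 library per group there is no replicate and no test between groups. Pairs with at least 100 counts over the 2 libraries were compared, and the fold was 1.5. Values are given by library for genes at least 2 times their next class with the same highest class in all libraries, for the 10 genes with the most counts and for the 12 largest folds of each comparison, while other genes are given by leading class. A level of 0 allows up to 3 counts. Alternatives were 5% mitochondrial counts, leaving out the 10% of nuclei with the most UMIs, thinning to 1000 UMIs, resolution 2, classing one by one, a minimum of 50 counts and division by the class median of all genes. Leaving out the classes with under 50 nuclei in a library was added after seeing the data. Scripts were tested on simulated data. Python 3.11.15, numpy 2.4.6, scipy 1.17.1, pandas 2.3.3, scikit-learn 1.9.0, leidenalg 0.10.2, igraph 0.11.9 and matplotlib 3.10.9 were used.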

Additional observations from a re-analysis of the deposited data

Results flagged for a closer look

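Some guidance genes were past the fold and higher than C57BL/6 in at least 1 class and lower in another, with the intervals off 1. They were Efnb3 and Robo2 of the 47 genes compared in Nav1 KO, and Epha10 and Sema6a of the 44 in BTBR. The share of all genes split in this way was not counted, so the split is no result about the set. These differences between classes were not tested, and the classes share their 2 libraries. In Nav1 KO, Efnb3 stood at 1.60 (1.25 to 2.06) times C57BL/6 in layer 2/3 and 1.53 (1.16 to 2.02) in layer 4/5 but 0.504 (0.338 to 0.777) in bulb interneurons, where it was at 1.07 with nuclei put in classes one by one. Robo2 stood at 2.05 (1.36 to 3.17) in astrocytes, 0.463 (0.322 to 0.660) in layer 5/6 NP neurons and 0.658 (0.488 to 0.905) in bulb interneurons, but at 1.01 in astrocytes and 0.921 in layer 5/6 NP neurons one by one, and at 0.708 in the latter at 2 times the clustering resolution. In BTBR, Epha10 stood at 2.21 (1.53 to 3.20) in medium spiny neurons (1.06 one by one) and at 0.600 (0.532 to 0.675) in layer 2/3, 0.640 (0.450 to 0.900) in layer 6 IT and 0.571 (0.434 to 0.746) in layer 6 CT. Sema6a stood at 1.79 (1.26 to 2.56) in layer 4/5 and 0.577 (0.431 to 0.770) in Vip/Lamp5 interneurons.

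The 12 unnamed clusters entered no comparison between or within classes, although their nuclei are part of the values over whole libraries. The levels given here are the 6 that stood at least 5-fold above those of the other nuclei on at least 20 counts. Only guidance genes were looked at in this way. There is therefore no share of all genes to set beside these 6, and they are no result about the set. Plxnb3 was at 17.3 CPM (14.1 to 21.1) in cluster 17, 719 nuclei led by oligodendrocyte genes with microglia markers also high, against 1.69 CPM in other nuclei. In cluster 22, 577 nuclei led by meningeal genes with astrocyte markers also high, Ephb4 was at 12.3 CPM (8.11 to 17.9) against 0.953, Sema3b at 10.5 (6.64 to 15.7) against 1.37 and Sema3d at 28.3 (21.7 to 36.2) against 5.09. Sema3d was at 291 CPM (208 to 397) in cluster 30, 84 nuclei led by Fn1, Prg4 and Klf4, against 5.18 CPM elsewhere. Plxnb1 was at 143 CPM (87.3 to 221) in cluster 33, 45 nuclei with ensheathing glia and astrocyte markers, against 18.5 CPM.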

How the results depend on the processing

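Of 63 settings of the summary values, 50 were close to the value reported and 13 moved. A count was close within 1.5 times the value reported, and a median inside the exact 95% interval of the reported median. The median ratio of highest to next class was 1.12 in place of 1.23 with nuclei classed one by one. Beside each count of pairs past the fold stands the share of the pairs of all genes under the same setting. Nav1 KO pairs higher than C57BL/6 numbered 17 (5.0%), and 9 after thinning to 1000 UMIs (5.63%), 38 at a minimum of 50 counts (7.45%) and 7 without classes under 50 nuclei (4.18%). Lower pairs numbered 28 (7.59%), and 6 after thinning (8.89%), 45 one by one (7.30%), 66 at 50 counts (10.2%) and 17 when divided by the class median of all genes (4.61%). BTBR had 26 higher pairs (7.73%), and 7 after thinning (7.81%) and 47 at 50 counts (10.2%), and 23 lower pairs (6.17%), and 9 after thinning (6.66%), 51 one by one (5.71%) and 50 at 50 counts (8.18%). Pairs compared were 114, 509 and 523 in Nav1 KO and 106, 515 and 482 in BTBR after thinning, one by one and at 50 counts, so more or fewer pairs entered. Ratios that turned direction one by one were Robo1 in mitral/tufted cells (0.720), Robo3 (0.826) and Efnb3 (1.07) in bulb interneurons of Nav1 KO and Robo2 in layer 5/6 NP neurons of BTBR (1.04), and Sema3f in mitral/tufted cells of Nav1 KO was at 0.974 without the 10% of nuclei with the most UMIs and 0.655 after thinning; the cause was not tested. Robo1 in mitral/tufted cells had no C57BL/6 count after thinning, so no ratio. Of 52 genes, 50, 48, 38, 49 and 30 kept their highest class at 5% mitochondrial counts, without the highest UMIs, thinned, at resolution 2 and one by one. No paired analysis was possible because each group has 1 library. Classes with few C57BL/6 nuclei (33 mitral/tufted, 27 ensheathing glia, 30 endothelial) limit the depth of their ratios.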

Other observations

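Genes under the count minimum were placed in classes by a few counts each. Sema3b, a secreted semaphorin, stood at 12.6, 16.2 and 10.96 CPM in meningeal fibroblasts of C57BL/6, Nav1 KO and BTBR, on 8, 35 and 12 of its 210 counts, and had no count in endothelial nuclei. Ephb4, the venous receptor of Efnb2, stood at 3.14, 9.74 and 16.4 CPM in meningeal fibroblasts, on 2, 21 and 18 of its 157 counts. Sema3g, an endothelial semaphorin, had 2 counts in the endothelial nuclei of each library, of 22 in all, which is under the floor of 3 counts.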
